A study of Mus musculus with 8 samples.

Results

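Open chromatin was described at 10 genes grouped as markers of alternatively activated macrophages: Mrc1, Arg1, Pparg, Clec10a, Mgl2, Tgm2, Retnla, Chil3, Cd163 and Flt1. Interleukin 4 and interleukin 13 induce such a state, and whether they induce each of these genes was not tested. The measure was ATAC-seq, in which a transposase inserts adapters where chromatin is open and peaks mark where insertions accumulate. Peaks of all 8 libraries were merged where they overlapped by at least 1 base, and a region belonged to a gene when that gene's body was the nearest protein-coding one on build GRCm38, within 100 kb. This gave 79 regions of 87260 in all. The farthest lay 66.6 kb from its gene and no region nearest to a member lay beyond 100 kb, so the distance limit left none out. Of the 79, 47 overlapped the gene body and 32 lay outside it.

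The libraries came from macrophages grown from mouse bone marrow for 7 days in medium with 25% L929-conditioned medium, a source of the growth factor M-CSF, and formed 4 groups of 2. These were Nfat5 KO cells given bacterial lipopolysaccharide (LPS) at 0.3 ng/ml for 2 h, WT cells with the same LPS dose, untreated KO cells and untreated WT cells. NFAT5 is a transcription factor of the osmotic stress response that also acts in macrophages exposed to bacterial products. No group received interleukin 4 or interleukin 13. The sources used here give neither the part of Nfat5 deleted nor the cell types in which it was deleted, so peak lists cannot check the deletion. Nothing states that replicates came from separate animals, so p-values measure only the spread between these samples.

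Interleukin 4 and interleukin 13 act through a shared receptor chain and the transcription factor STAT6, which switches on genes for arginine metabolism, lectin receptors and secreted chitinase-like and resistin-like proteins. LPS, sensed by TLR4, drives the opposed inflammatory programme in macrophages. PPARG works downstream of STAT6 as a lipid-sensing nuclear receptor and helps to maintain the alternative state.

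The deposited lists held 54027 to 57691 peaks in the LPS libraries and 56346 to 60117 in the untreated ones, covering 26.2 to 28.0 Mb and 29.6 to 31.2 Mb. They give positions only, so depth is unknown, and the absence of a peak from a list means that none was called, not that the site was closed. Peaks in bulk cells also cannot tell a change in every cell from a change in the share of cells. All 8 macrophage markers (Adgre1, Csf1r, Cd68, Spi1, Itgam, Mertk, Fcgr1 and Lyz2) had a region called in all 8 libraries. Among markers of other cells, such a region was found at 2 of 4 T cell genes, 1 of 4 B cell genes, 4 of 5 endothelial genes, 3 of 5 fibroblast or stroma genes, 1 of 5 neutrophil genes, 2 of 4 dendritic cell genes and 1 of 3 mast cell genes. Of all regions within 100 kb of a gene, 42.9% were called in all 8 libraries. The share of all genes with such a region was not counted, so these counts cannot show which cell types were present.

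The sequence before the gene start is shown for 5 members whose starts differed in how many libraries called a peak there. RefSeq promoter sequences (GRCm38.p6) were at hand for 7 of the 10 genes. Each line gives the 250 bases before the start site, 5′ to 3′ on the gene's strand. The windows are chr2:14229164-14229413 for Mrc1 (plus strand), chr5:147726012-147726261 for Flt1 (minus strand), chr11:70130107-70130356 for Mgl2 (plus strand), chr16:48842359-48842608 for Retnla (plus strand) and chr3:106167565-106167814 for Chil3 (minus strand). Capitals mark matches to the motifs named below them.
Mrc1: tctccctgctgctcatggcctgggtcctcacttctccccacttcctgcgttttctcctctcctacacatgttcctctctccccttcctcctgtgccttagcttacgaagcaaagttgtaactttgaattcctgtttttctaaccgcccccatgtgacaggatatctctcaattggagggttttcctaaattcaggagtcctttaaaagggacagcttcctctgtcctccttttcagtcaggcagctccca
Flt1: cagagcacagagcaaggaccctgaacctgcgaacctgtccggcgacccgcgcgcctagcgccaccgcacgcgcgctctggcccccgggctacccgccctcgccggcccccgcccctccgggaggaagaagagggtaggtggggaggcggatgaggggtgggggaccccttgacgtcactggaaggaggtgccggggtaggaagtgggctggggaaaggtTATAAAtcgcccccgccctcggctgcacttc
Mgl2: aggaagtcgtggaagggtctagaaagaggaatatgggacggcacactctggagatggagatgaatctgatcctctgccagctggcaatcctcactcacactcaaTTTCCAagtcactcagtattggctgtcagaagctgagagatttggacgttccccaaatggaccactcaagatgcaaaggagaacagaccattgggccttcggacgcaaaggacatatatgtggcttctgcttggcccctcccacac
Retnla: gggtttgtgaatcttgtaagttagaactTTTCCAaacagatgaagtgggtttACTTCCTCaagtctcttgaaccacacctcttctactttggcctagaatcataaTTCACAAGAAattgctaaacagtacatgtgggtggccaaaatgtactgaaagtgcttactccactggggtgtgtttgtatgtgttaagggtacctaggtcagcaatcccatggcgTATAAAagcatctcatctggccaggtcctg
Chil3: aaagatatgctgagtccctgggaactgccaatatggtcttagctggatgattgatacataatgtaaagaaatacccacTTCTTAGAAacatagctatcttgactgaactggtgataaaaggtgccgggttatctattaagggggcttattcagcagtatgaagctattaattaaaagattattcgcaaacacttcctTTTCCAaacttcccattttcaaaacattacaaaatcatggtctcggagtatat

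Motifs were searched as plain letters on both strands, apart from TATAAA, which was searched on the gene's strand. Retnla held TTCACAAGAA, a match to the STAT6 pattern of TTC and GAA with 4 bases between, 145 bases before its start, and this pattern was present in 5.85% of all 32851 windows of this length. Its window also held the PU.1 pattern GAGGAAGT on the opposite strand (2.44% of all windows) and TATAAA (7.59%), which Flt1 held as well. Chil3 held TTCTTAGAA, a match to the spacing TTCNNNGAA of other STAT proteins (7.02% of windows). No matches overlapped. TGGAAA, the core of NFAT family sites, lay in the Chil3, Cd163, Mgl2 and Retnla windows (18.6% of all). TGANTCA (AP-1, 6.75%), TTGCNNCAA (C/EBP, 1.74%), the NF-kB pattern of GGGA and TTTCC with 1 base between (0.356%) and the PPARG and RXR pattern of AGGTCA repeated after 1 base (0.0335%) were in none of the members' windows. The Mrc1 window held none of the motifs.

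Peaks reached these starts unevenly. Within the Mrc1 window they covered 172 and 96 bases in the KO LPS libraries, all 250 in both WT LPS libraries and all 250 in the 4 untreated ones. The first of 3 Pparg windows (chr6:115360894-115361143), with 82.4% G or C, was covered in full by all 8 libraries. In the Mgl2 window, peaks covered 131 and 113 bases in the untreated KO libraries and 123 bases in untreated WT library 1, and no LPS library had a peak. The Chil3 window had a peak in untreated KO library 2 (54 bases) and untreated WT library 2 (90 bases), and in no other. The Retnla and Cd163 windows had none in any library. The share of G and C was 36.4% in Chil3, 36.8% in Cd163, 42.8% in Retnla, 49.6% in Mrc1, 50.8% in Mgl2 and 70.4% in Flt1, against a median of 52.4% over all windows. The Flt1 window was reached by a peak in untreated WT library 2 alone (92 bases).

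Of the 79 regions, 34 (43.0%) had a peak in all 8 libraries and 10 (12.7%) in just 1, where all 78497 regions within 100 kb of a gene had 42.9% and 18.6%. Between 52 and 55 of the members' regions were called in an LPS library and between 54 and 62 in an untreated one. Flt1 had 18 regions, Mrc1 and Pparg 15 each, Tgm2 and Cd163 8 each, Clec10a and Chil3 4 each, Arg1 3, and Mgl2 and Retnla 2 each. The genes differ in length from 1.9 kb (Retnla) to 164.8 kb (Flt1). No region of Mgl2, Retnla or Chil3 was called in all 8 libraries.

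**Figure D1:**
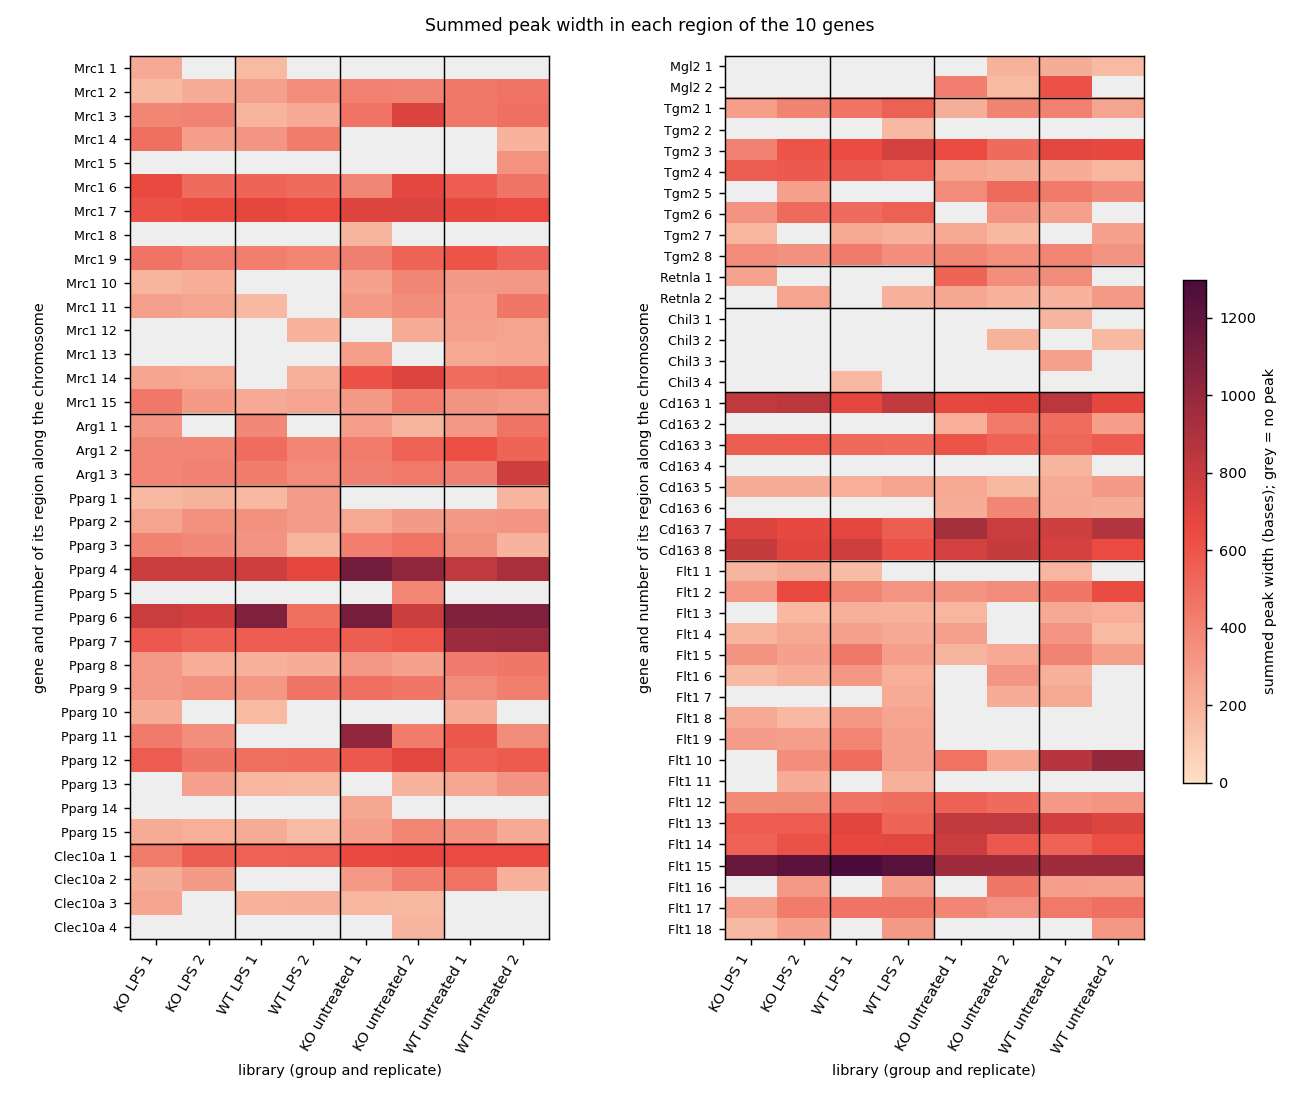
Each row is 1 of the 79 regions, numbered along the chromosome within its gene, and each column is a library; colour gives the summed width of its peaks in bases and grey marks no peak. Flt1 regions 8 and 9 have peaks in the 4 LPS libraries only, and Cd163 regions 2 and 6 in the 4 untreated libraries only.

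The first comparison asked what LPS did at these genes in each genotype. Regions are numbered along the chromosome within each gene. Within a genotype, a region was counted as LPS-only if it had a peak in both LPS libraries and none in the untreated ones, and as untreated-only in the reverse case. With 2 libraries against 2 the smallest possible exact p is 0.333, so these calls carry no test and are set beside the share of all regions that met the same condition. In KO cells 6 of the 79 regions were LPS-only (7.59%, against 2.5% of all regions near genes) and 3 were untreated-only (3.8%, against 4.11%). In WT cells 3 were LPS-only (3.8%, against 3.94%) and 8 untreated-only (10.1%, against 5.07%). The 6 LPS-only regions in KO cells lay at 3 genes, most of them at Flt1 (regions 1, 8, 9 and 18). The 8 untreated-only regions in WT cells lay at 6 genes. Across both genotypes 2 regions, both at Flt1, were LPS-only in all 8 libraries (2.53%, against 1.09%). Another 2, both at Cd163, were untreated-only in all 8 (2.53%, against 0.944%).

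Mrc1 encodes the mannose receptor, CD206, a lectin that takes up glycoproteins with terminal mannose. Its region 2, over the gene start (chromosome 2, 14229016 to 14229575), was called everywhere but with narrower peaks after LPS. Peak widths were 172 and 224 bases in KO LPS libraries and 278 and 351 in WT LPS libraries, against 412 and 403 in untreated KO libraries and 449 and 462 in untreated WT libraries. With LPS, KO less WT gave a log2 difference in width of -0.67 (SE 0.17, limma adjusted p = 0.274), which did not pass. Every LPS value lay below every untreated value. Averaged over genotypes the log2 width fell by 0.80 (SE 0.12, limma adjusted p = 0.0426 over 36009 regions called in all 8 libraries), where the median over all these regions was a log2 change of -0.11. In that fit 1.43% of regions were called lower with LPS and 0.492% higher, and of the 34 members' regions 1 was called lower and 1 higher. Subtracting each library's median log2 width moved the overall median to 0.01 and the calls over all regions to 231 higher and 161 lower, against 177 and 514. The call ended when any 1 library was left out (adjusted p between 0.0568 and 0.123) and with the medians subtracted (log2 change -0.68, adjusted p = 0.0695), and with a replicate block (adjusted p = 0.118).

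Region 3 of Mrc1, inside the gene and 1.81 kb after its start (chromosome 2, 14231219 to 14231930), had peaks of 389 and 401 bases in KO LPS libraries and 185 and 234 in WT LPS libraries. In untreated libraries they were 469 and 712 bases in KO and 450 and 488 in WT. The LPS and untreated values did not overlap, and the log2 change was -0.86 (SE 0.16, limma adjusted p = 0.0577), which missed the threshold. Towards the far end of the gene, region 14 (chromosome 2, 14323016 to 14323810) had peaks of 257 and 240 bases in KO LPS libraries, none and 208 in WT LPS libraries, 611 and 705 in untreated KO libraries and 502 and 514 in untreated WT libraries. Regions 3 and 14 were singled out after their values were seen.

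Calls moved both ways within Mrc1. Region 4 (chromosome 2, 14233756 to 14234363) had peaks of 483 and 288 bases in KO LPS libraries and 320 and 434 in WT LPS libraries, with a peak of 196 bases in untreated WT library 2 and none in the other untreated libraries. It was LPS-only in KO. Region 13 (chromosome 2, 14312591 to 14312884) was untreated-only in WT, with peaks of 243 and 256 bases, and was also called in untreated KO library 1, at 281 bases. Region 7, the widest on average (chromosome 2, 14249788 to 14250500), had 614 and 639 bases in KO LPS libraries and 674 and 648 in WT LPS libraries, against 698 and 707 in untreated KO libraries and 662 and 649 in untreated WT libraries, so the arms overlapped.

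Clec10a and Mgl2 encode the related galactose-type lectins CD301a and CD301b and lie side by side on chromosome 11. Clec10a region 1, over an end of the gene (chromosome 11, 70166255 to 70166922), had peaks of 432 and 563 bases in KO LPS libraries and 538 and 551 in WT LPS libraries. Untreated libraries had 656 and 667 in KO and 648 and 638 in WT. All LPS peaks were narrower than all untreated ones, with a log2 change of -0.33 (SE 0.10, limma adjusted p = 0.146), which did not pass. Mgl2 had no peak in any LPS library. Its region 2, over an end of the gene (chromosome 11, 70129616 to 70130237), had 426 and 167 bases in untreated KO libraries and 614 and none in untreated WT libraries, and was untreated-only in KO. Region 1, 8.61 kb outside (chromosome 11, 70121295 to 70121517), had none and 200 bases in untreated KO libraries and 223 and 164 in untreated WT libraries, and was untreated-only in WT.

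Cd163 encodes the scavenger receptor for complexes of haemoglobin and haptoglobin. Region 6, inside the gene and 15.6 kb after its start (chromosome 6, 124320299 to 124320721), had no peak in any LPS library, and peaks of 222 and 390 bases in untreated KO libraries and 234 and 223 in untreated WT libraries. Region 2, 25.2 kb before the start (chromosome 6, 124278902 to 124279459), also had none with LPS, and 212 and 445 bases in untreated KO libraries and 496 and 285 in untreated WT libraries. The condition of no peak with LPS and peaks in all 4 untreated libraries thus held at both. With calls limited to libraries whose peaks covered 50% of a region, region 2 no longer met it and region 6 did. Region 7, also inside the gene (chromosome 6, 124321399 to 124322339), was called everywhere, with 559 to 709 bases with LPS and 762 to 929 untreated. The region with the widest mean peak over the 8 libraries, region 1 (chromosome 6, 124272910 to 124273763), had 818 and 843 bases in KO LPS libraries and 673 and 814 in WT LPS libraries, against 666 and 673 in untreated KO libraries and 840 and 670 in untreated WT libraries. LPS and untreated widths overlapped there and in the 3 remaining regions called everywhere. Region 7 was chosen after its values were seen.

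Arg1 encodes arginase 1, which turns arginine into ornithine and urea and competes for arginine with nitric oxide synthase. Its 3 regions lay outside the gene. Region 1, 0.449 kb from the gene (chromosome 10, 24927920 to 24928394), had peaks of 323 and none in KO LPS libraries and 377 and none in WT LPS libraries, against 287 and 184 in untreated KO libraries and 319 and 463 in untreated WT libraries. It separated no groups and was described after its values were seen. Region 2, the widest on average (chromosome 10, 24930115 to 24930760), had 388 and 390 bases in KO LPS libraries and 500 and 392 in WT LPS libraries, against 434 and 542 in untreated KO libraries and 627 and 530 in untreated WT libraries. The arms overlapped there and at region 3, 22.8 kb away, with 369 to 429 bases with LPS and 417 to 771 untreated.

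Retnla (RELM alpha) and Chil3 (Ym1) encode secreted proteins of alternatively activated mouse macrophages. Retnla had 2 regions, both before the gene at 10.9 and 8.67 kb from its start. Region 1 had peaks of 266 bases and none in KO LPS libraries, none in WT LPS libraries, 529 and 355 bases in untreated KO libraries and 361 and none in untreated WT libraries. Region 2 was called in all 4 untreated libraries (194 to 306 bases), in KO LPS library 2 (260) and in WT LPS library 2 (203). Chil3 had 4 regions, and none was called in more than 2 libraries. Its widest, region 3, had a peak of 275 bases in untreated WT library 1 alone. Region 2, over its start, was called in untreated KO library 2 (201 bases) and untreated WT library 2 (168 bases).

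Tgm2, the gene of transglutaminase 2, an enzyme that crosslinks proteins, held the member region with the smallest adjusted p for LPS. Region 4, inside the gene (chromosome 2, 158136025 to 158136605), had peaks of 562 and 580 bases in KO LPS libraries and 581 and 551 in WT LPS libraries, against 250 and 223 in untreated KO libraries and 227 and 179 in untreated WT libraries. The arms averaged 568.5 ± 14.6 bases with LPS and 219.8 ± 29.7 untreated (SD, n = 4 each), far apart and with little spread. The log2 change was 1.38 (SE 0.10, limma adjusted p = 0.0227), with 1.49 in WT (adjusted p = 0.0423) and 1.27 in KO (adjusted p = 0.0915). Leaving out KO LPS library 1 kept the averaged call (adjusted p = 0.0494), and leaving out any other library moved the adjusted p to between 0.0522 and 0.0901, with changes of 1.30 to 1.47. The call in WT alone ended without any 1 of the libraries. With a replicate block no region passed in any contrast (adjusted p = 0.116 for this one over both genotypes). In WT alone 0.0667% of regions were called higher with LPS and 0.167% lower. In KO alone no region of the 36009 passed limma in either direction, with 4831 at an unadjusted p under 0.05.

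The region of Tgm2 with the widest mean peak, region 3 (chromosome 2, 158132920 to 158133777), had 410 and 606 bases in KO LPS libraries and 644 and 745 in WT LPS libraries, against 646 and 506 in untreated KO libraries and 687 and 660 in untreated WT libraries, with overlap. Region 5 (chromosome 2, 158144053 to 158144561) was untreated-only in WT. It had no peak in WT LPS libraries, 437 and 376 bases in untreated WT libraries, none and 277 in KO LPS libraries, and 368 and 509 in untreated KO libraries. Region 6 (chromosome 2, 158145256 to 158145808) had peaks of 331 and 510 bases in KO LPS libraries and 504 and 553 in WT LPS libraries. In untreated libraries it had none and 325 bases in KO and 278 and none in WT. All 4 LPS libraries thus had wider peaks there than the untreated libraries, and in the nearby region 5 narrower peaks or none. Region 6 was picked out after its values were seen.

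**Figure D2:**
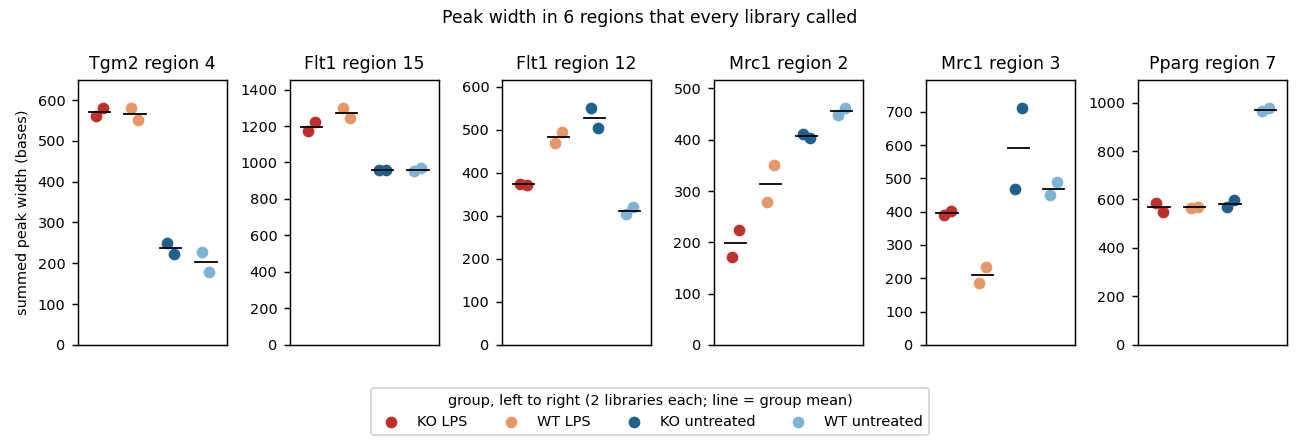
Summed peak width in bases for 6 regions called in all 8 libraries; each point is a library and each line the mean of the 2 libraries of a group. Tgm2 region 4 and Flt1 region 15 are wider in all LPS libraries, Mrc1 regions 2 and 3 narrower, Pparg region 7 is wide in untreated WT libraries only, and Flt1 region 12 moves in opposite directions in KO and WT.

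Pparg had 9 regions called in all 8 libraries. Region 6, over the first start site (chromosome 6, 115360789 to 115361940), had 779 and 752 bases in KO LPS libraries and 1083 and 486 in WT LPS libraries, against 1120 and 781 in untreated KO libraries and 1067 and 1077 in untreated WT libraries. WT LPS and untreated KO replicates differed widely there, and the log2 change was -0.43 (SE 0.27, limma adjusted p = 0.399). Region 4, 16.8 kb before that start, was picked out after its values were seen, with 670 to 785 bases with LPS and 818 to 1123 untreated. Region 1, 37.7 kb before it (chromosome 6, 115323062 to 115323410), was LPS-only in KO, with 176 and 202 bases, and had 176 and 291 bases in WT LPS libraries and 190 bases in untreated WT library 2.

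Region 7 of Pparg, inside the gene (chromosome 6, 115375026 to 115376014), had its widest peaks in untreated WT libraries. Its peaks were 586 and 548 bases in KO LPS libraries, 565 and 571 in WT LPS libraries, 567 and 598 in untreated KO libraries, and 965 and 978 in untreated WT libraries. The 3 other groups were close to each other and well below untreated WT cells. The log2 change with LPS was -0.77 in WT (SE 0.10, limma adjusted p = 0.0549) and -0.04 in KO (SE 0.10, adjusted p = 0.903). Averaged over genotypes it was -0.41 (SE 0.07, adjusted p = 0.0509), a mean of unlike values. The LPS effect in KO less that in WT was 0.74 (SE 0.14, limma adjusted p = 0.448). Untreated KO less untreated WT cells gave -0.74 (SE 0.10, limma adjusted p = 0.249). None of these passed. Region 8, also inside the gene, had the same order, with 438 and 452 bases in untreated WT libraries and 204 to 316 in the others. Regions 7 and 8 were described after their values were seen.

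Flt1 encodes VEGF receptor 1, which binds VEGF-A and placental growth factor and is best known in endothelial cells, though monocytes and macrophages carry it too. Region 9, inside the gene and 4.14 kb after its start (chromosome 5, 147721479 to 147721874), had peaks of 293 and 280 bases in KO LPS libraries and 396 and 269 in WT LPS libraries, and none in any untreated library. Region 8, 18.2 kb after the start (chromosome 5, 147707493 to 147707811), had 236 and 175 bases in KO LPS libraries and 319 and 262 in WT LPS libraries, and again none untreated. Both met this condition also with 50% of the region covered and with lists of equal length. In KO cells regions 1 and 18 were LPS-only as well, with 187 and 232 bases and 172 and 269 bases, and both were also called in 1 WT LPS and 1 untreated WT library.

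Region 15 of Flt1, 32.0 kb before the start (chromosome 5, 147757963 to 147759270), had the widest mean peak of this gene. Its peaks were 1171 and 1220 bases in KO LPS libraries and 1299 and 1242 in WT LPS libraries, against 958 and 959 in untreated KO libraries and 954 and 967 in untreated WT libraries. The arms averaged 1233 ± 53.1 with LPS and 959.5 ± 5.4 untreated (SD, n = 4 each) and did not overlap. The log2 change was 0.36 (SE 0.07, limma adjusted p = 0.0587), which missed the threshold, and it was 0.48 with each library's median subtracted (adjusted p = 0.0461).

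Over the gene start, region 10 (chromosome 5, 147725071 to 147726103) had none and 353 bases in KO LPS libraries and 495 and 276 in WT LPS libraries. Untreated KO libraries had 473 and 252 bases and untreated WT libraries 858 and 1003. Its widest peaks were thus those of untreated WT cells, while regions 8 and 9 further into the gene were seen with LPS only. It was described after its values were seen. The 5 endothelial markers (Pecam1, Cdh5, Kdr, Tek and Tie1) had 25 or 26 of their 41 regions called in each LPS library and 28 to 31 in each untreated library, and their part in the Flt1 calls was not tested.

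**Figure D3:**
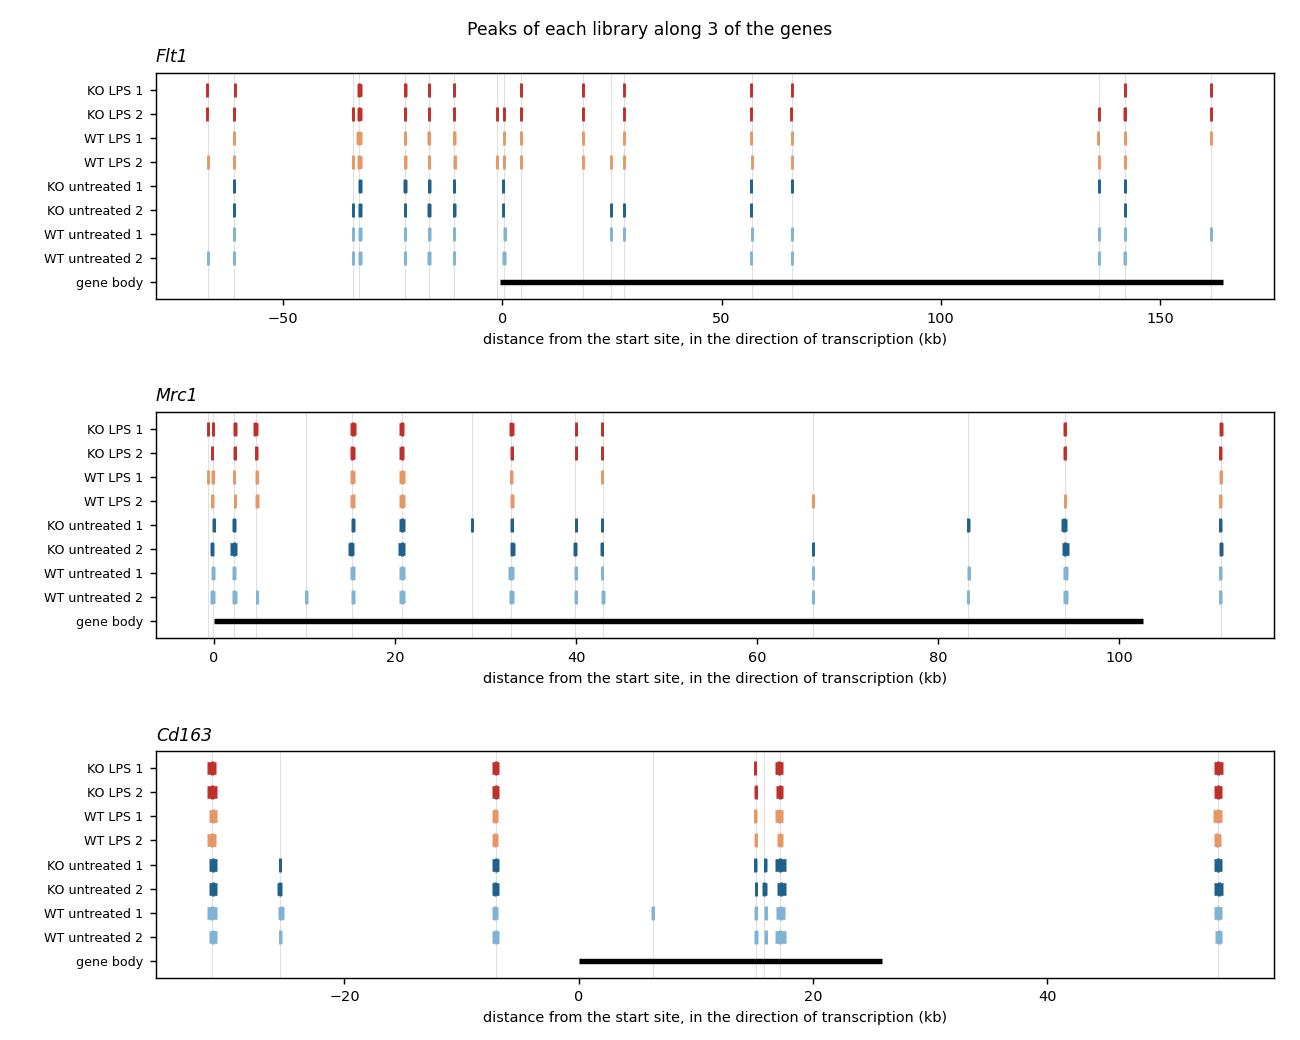
Peaks of each library at Flt1, Mrc1 and Cd163 against distance from the start site in kb, with bars for peak widths, a tick of fixed size at each peak's centre (not to scale) and the gene body in black. At Flt1 the peaks 4.14 and 18.2 kb after the start are present in the 4 LPS rows only, and at Cd163 those 25.2 kb before and 15.6 kb after the start in the 4 untreated rows only.

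Of the 34 regions called in all 8 libraries, Tgm2 region 4 and Flt1 region 15 had all 4 LPS peaks wider than all 4 untreated peaks, 2 regions where the share over all such regions was 2.6%. In 7 the LPS peaks were all narrower (Mrc1 2 and 3, Pparg 4 and 15, Clec10a 1, Cd163 7 and Flt1 13), against 10.8% of all. The members' median log2 change with LPS was -0.12, against -0.11 over all.

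Summing peak widths over all regions of a gene gave the covered bases. Mrc1 had 3480 ± 518 covered bases with LPS and 4848 ± 420 untreated (SD, n = 4 each), and Pparg had 4702 ± 479 and 6178 ± 194. Cd163 had 2928 ± 156 with LPS and 3753 ± 194 untreated. Retnla had 182 ± 125 and 547.5 ± 192, and Mgl2 had none with LPS and 448.5 ± 282 untreated. At these 5 genes every LPS library lay below every untreated one, which held for 13.8% of the 16470 genes with a region, and each had a two-sided exact permutation p of 0.0286, the smallest possible with 4 against 4 (adjusted p = 0.183 over all genes). No member had every LPS library above, which 1.75% of genes did. None passed the adjustment. Peaks covered less sequence in all LPS libraries, and with bases taken as a share of all bases covered in the library the arms stayed apart at Pparg and Cd163 and overlapped at Mrc1 and Retnla, where 5.03% of genes had all LPS libraries lower. Scaling cannot bring the arms of Mgl2 together, since it had no peak with LPS, but with lists of equal length they overlapped.

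At the other 5 genes the arms overlapped. Flt1 had 6138 ± 878 covered bases with LPS and 5544 ± 635 untreated (exact permutation p = 0.229, n = 4 each), and Tgm2 had 2714 ± 419 and 2278 ± 214 (exact p = 0.114). Without KO LPS library 1, in which both were lowest among LPS libraries, both had every LPS library above every untreated one. Clec10a had 817 ± 83 with LPS and 1139 ± 248 untreated (exact p = 0.0857), Arg1 993 ± 260 and 1359 ± 288 (exact p = 0.114) and Chil3 43.5 ± 87 and 207 ± 190 (exact p = 0.257). Without untreated WT library 2 every LPS library lay below at Clec10a too, and without WT LPS library 1 at Arg1.

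**Figure D4:**
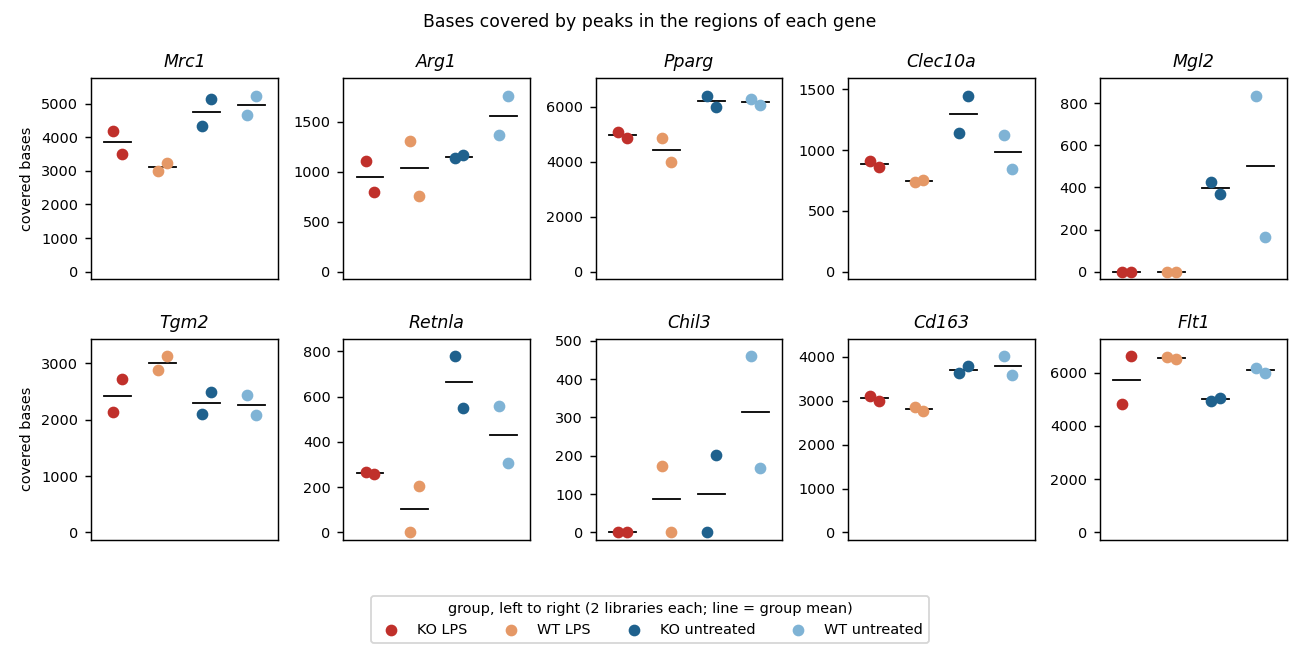
Covered bases in the regions of each gene by library; points are libraries, lines are means of the 2 libraries of a group, and each panel has its own scale. LPS libraries lie below untreated ones at Mrc1, Pparg, Mgl2, Retnla and Cd163, and overlap them at the other genes.

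The second comparison asked where KO and WT cells differed. Untreated, 1 region was called in both KO libraries and no WT library (1.27%, against 1.51% of all regions) and none in the reverse pattern (0, against 2.28%). With LPS, 3 regions were called in both KO libraries and in no WT library (3.8%, against 1.83%) and none in the reverse (0, against 3.24%). No region separated all 4 KO from all 4 WT libraries in either direction (0.124% and 0.248% of all regions). These genotype calls carry no test.

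The 3 regions with LPS lay at 3 genes and shared a pattern, called in every library except both WT LPS libraries, which 0.729% of all regions near genes had. Mrc1 region 10, inside the gene (chromosome 2, 14269118 to 14269514), had peaks of 191 and 218 bases in KO LPS libraries and none in WT LPS libraries, with 272 and 388 in untreated KO libraries and 297 and 310 in untreated WT libraries. Pparg region 11, also inside its gene (chromosome 6, 115469372 to 115470380), had 441 and 354 bases in KO LPS libraries and none in WT LPS libraries, with 1009 and 435 untreated in KO and 589 and 361 untreated in WT. Clec10a region 2, 14.2 kb outside (chromosome 11, 70185048 to 70185563), had 223 and 299 bases in KO LPS libraries and none in WT LPS libraries, with 306 and 423 untreated in KO and 475 and 203 untreated in WT. Peaks in the KO LPS libraries were narrower than the mean untreated KO peak at each. With 50% of the region covered none of the 3 separated the LPS groups, and with lists of equal length all 3 did. The opposite pattern, missing in the KO LPS libraries alone, occurred at no member (0.54% of all regions), nor did absence from the untreated KO (0.225%) or untreated WT libraries alone (0.132%).

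The untreated region was Clec10a region 3 (chromosome 11, 70189292 to 70189546), with 182 and 170 bases in untreated KO libraries and none in untreated WT libraries. With LPS it had 255 bases and none in KO libraries and 200 and 206 in WT libraries, so it was LPS-only in WT.

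In width, no member passed limma for KO against WT over both treatments, where 0.00278% of regions passed as higher and 0.00555% as lower, nor within a treatment. Untreated, no region of the 36009 passed, with 2322 at an unadjusted p under 0.05. With LPS 0.00555% passed in each direction. Peaks were wider in every KO library than in every WT library at Pparg region 3 (1.08% of all regions) and narrower at Flt1 region 17 (2.97%). Covered bases of KO and WT libraries, with both treatments pooled, overlapped at all 10 genes. Of all genes, 0.923% had every KO library above and 3.97% every KO library below. At Mrc1, Pparg, Mgl2, Retnla and Cd163 every LPS library lay below every untreated one, so KO and WT libraries had to overlap. The overlap there says nothing about genotype. The largest difference was at Flt1, with 5358 ± 840 in KO and 6324 ± 284 in WT (SD, n = 4 each, two-sided exact permutation p = 0.143).

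The difference of the LPS effect between genotypes was tested in the same fit, and no member passed (0 of all regions higher, 0.00278% lower). The smallest p among the members was at Flt1 region 12, singled out for it, 10.6 kb before the start (chromosome 5, 147736649 to 147737329). Its peaks were 374 and 372 bases in KO LPS libraries and 551 and 504 in untreated KO libraries, and 469 and 496 bases in WT LPS libraries and 304 and 320 in untreated WT libraries. LPS values lay below untreated ones in KO and above them in WT. The LPS effect in KO less that in WT was -1.13 on the log2 scale (SE 0.14, limma adjusted p = 0.331).

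Other genes of the pathway were taken from lists by function, and calls are given as LPS-only and untreated-only regions. The shares over all regions near genes were 2.5% and 4.11% in KO cells, and 3.94% and 5.07% in WT cells. Over all 8 libraries they were 1.09% LPS-only and 0.944% untreated-only. The 12 genes of interleukin 4 and interleukin 13 signalling had 90 regions, with 2 LPS-only (2.22%) and 5 untreated-only (5.56%) in KO cells, and 3 (3.33%) and 2 (2.22%) in WT cells. Il13ra1, a receptor chain for interleukin 13, had a region called in the 4 LPS libraries only (chromosome X, 36107279 to 36107908, 247 to 546 bases). Jak1, a kinase of the receptor, had one called in the 4 untreated libraries only (chromosome 4, 101244430 to 101245114, 177 to 682 bases). Each was 1.11% of the list's regions, near the share over all regions. The 12 transcription factor genes of alternative activation, Irf4, Klf4 and Cebpb among them, had 106 regions, with 2 (1.89%) and 4 (3.77%) in KO cells, and 3 (2.83%) and 5 (4.72%) in WT cells, each share below that over all regions. Cebpb, which drives Arg1 in mouse macrophages, had a region with peaks in the 4 LPS libraries only, 53.5 kb away (chromosome 2, 167743969 to 167744328, 217 to 360 bases). This was 0.943% of the list's regions, again near the share over all.

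The 28 other marker genes had 176 regions, with 3 LPS-only (1.7%, against 2.5% of all) and 6 untreated-only (3.41%, against 4.11%) in KO cells. In WT cells they had 8 (4.55%, against 3.94%) and 9 (5.11%, against 5.07%). Called in the 4 LPS libraries only was a region near Cd200r1, an inhibitory receptor (209 to 289 bases), and in the 4 untreated libraries only were regions at Cdh1 (E-cadherin, 308 to 401 bases), Igf1 (a growth factor, 179 to 256 bases) and Retnlg (263 to 411 bases), a relative of Retnla. These calls made up 0.568% (LPS-only) and 1.7% (untreated-only) of the list's regions, against 1.09% and 0.944% of all. A region near the lectin gene Cd209a was called in all 4 WT libraries and no KO library (209 to 247 bases). It was 0.568% of the list's regions, against 0.248% of all. The 11 genes of arginine and polyamine metabolism had 61 regions, with 4 LPS-only (6.56%) and 1 untreated-only (1.64%) in KO cells, and 2 (3.28%) and 3 (4.92%) in WT cells. The 4 in KO cells lay at 2 of the genes, Sms and Nos2, the gene of a nitric oxide synthase. Here Azin1, an activator of polyamine synthesis, had a region in the 4 untreated libraries only (197 to 355 bases). It was 1.64% of the list's regions, against 0.944% of all. Ass1, which makes argininosuccinate (304 to 659 bases), and Slc7a1, an arginine carrier (251 to 430 bases), each had one in the 4 WT libraries only. Together these were 3.28% of the list's regions, against 0.248% of all.

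Relatives of Flt1 and their ligands formed the last list, with 8 genes and 98 regions. In KO cells 5 were LPS-only (5.1%, against 2.5% of all) and 2 untreated-only (2.04%, against 4.11%). In WT cells there were 10 (10.2%, against 3.94%) and 4 (4.08%, against 5.07%). The LPS-only regions lay at 2 genes in KO cells (Nrp2 and Kdr) and at 3 in WT cells (Nrp2, Kdr and Nrp1). In both genotypes most were at Nrp2. Nrp2, a neuropilin that acts as a VEGF co-receptor, held 2 regions called in the 4 LPS libraries only (chromosome 1, 62714944 to 62715342, 269 to 399 bases, and 62763626 to 62764041, 242 to 404 bases). Kdr, VEGF receptor 2, was the nearest gene of another, 72.6 kb away (167 to 419 bases), and is also one of the endothelial markers. Pgf, the gene of placental growth factor, had a region called in the 4 untreated libraries only (169 to 181 bases). Over all 8 libraries 3.06% of the list's regions were LPS-only and 1.02% untreated-only, against 1.09% and 0.944% of all.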

How the data were processed

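ATAC-seq peak lists of 8 libraries were analysed. The deposited lists hold 1 list of peak positions per library on GRCm38 (mm10), with no score. The tools named are MACS2 2.1.1, Picard, Bowtie2 2.3.0 and bcl2fastq 2.17.1.14, per the submitters' processing notes. Settings, the peak threshold, duplicate removal and cut-site shift were not given in the sources used here, and all can change which weak peaks were listed. Start positions were turned to count from 1.

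Peaks of the main chromosomes were merged into 87260 regions and assigned to the nearest of 21887 protein-coding gene bodies of GRCm38.p6. A peak overlapping a region by at least 1 base called it. Log2 widths of the 36009 regions called in all 8 libraries were fitted with limma 3.58.1 (R 4.3.3) on 4 group means. Benjamini-Hochberg adjustment was used, with a threshold of 0.05. The fit was also run on simulated widths that held no shift shared by a whole library. That run therefore cannot show how such a shift affects the calls. Covered bases per gene were compared by exact permutation over 70 arrangements and adjusted over 16470 genes. Calls carry no test. Figures were drawn with matplotlib 3.10.9.

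Described in full were regions whose calls separate groups, those limma called and the widest region of a gene, by mean peak width over the libraries that called it. Other regions given with their values were chosen after those values were seen. Among them were Tgm2 region 6, Flt1 regions 10 and 12, Pparg regions 4, 7 and 8 and Cd163 region 7. Mrc1 regions 3 and 14 and Arg1 regions 1 and 3 were chosen in the same way. The members and gene lists were chosen with earlier results of these data known. Alternatives concerned overlap, distance, list length, scaling, weights, replicate block and left-out libraries.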

Additional observations from a re-analysis of the deposited data

Results flagged for a closer look

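The LPS effect on the log2 width of Flt1 region 12 was -1.13 (KO minus WT), with narrower peaks after LPS in both KO libraries and wider ones in both WT libraries. The test of this difference did not pass (limma adjusted p = 0.331, unadjusted p = 0.000231). LPS effects of opposite sign without overlap in either genotype were found in 3.8% of the 36009 regions called everywhere, and in 1 of the 34 members.

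At Mrc1 region 7, inside the gene, the LPS effect on log2 width in KO less that in WT was -0.18. Peaks were 614 and 639 bases in KO LPS libraries and 674 and 648 in WT LPS libraries, and 698 and 707 in untreated KO libraries and 662 and 649 in untreated WT libraries, so KO libraries lay below WT ones with LPS and above them untreated. The test of the difference gave a limma adjusted p of 0.911. How many of all regions share this pattern was not counted, so it cannot be called unusual.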

How the results depend on the processing

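Of 28 calls of members' regions, 19 held when 50% of the region had to be covered, 23 with the nearest gene within 25 kb, 25 with lists of equal length (the widest 54027 peaks) and 0 with the widest 27013 peaks, a setting without peaks under 403 to 476 bases. In that setting LPS-only regions numbered 1 in KO, untreated-only ones 1 in WT, KO-only and WT-only ones with LPS 0 and 1, and those apart over all 8 libraries 1 in each direction. With 50% covered there were 6 LPS-only regions in WT and 2 KO-only and 2 WT-only untreated. With equal lists there were 5 LPS-only in WT, 0 KO-only and 2 WT-only untreated, and 5 KO-only with LPS. Within 25 kb 1 region was untreated-only over all 8 libraries.

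Leaving out 1 library at a time gave 6 to 9 untreated-only regions in KO, 5 to 6 LPS-only and 10 to 13 untreated-only in WT, 2 to 3 KO-only and 3 to 5 WT-only untreated, 4 to 5 KO-only and 1 to 3 WT-only with LPS, and 2 to 4 LPS-only over the remaining libraries; an arm of 1 library raises such counts. Regions past limma's threshold numbered 0 to 86 for LPS over both genotypes (691 with all libraries; members 0 to 1) and 0 for LPS in WT (84; members 0), KO against WT (3), KO against WT with LPS (4) and the difference of LPS effects (1). A group left with 1 library is assumed to vary like the others. Genes with arms apart numbered 0 to 2 (LPS higher), 0 to 1 (KO higher) and 0 to 1 (KO lower).

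LPS and untreated libraries of the same genotype and replicate number share a code in their titles, and the labels do not say whether it marks an animal or a culture, so whether they are pairs is not known. Deviations of same-numbered libraries correlated at 0.0544 in KO and 0.0537 in WT. With a replicate block, 0 regions passed in any contrast, members included (Tgm2 region 4 adjusted p = 0.116, Mrc1 region 2 adjusted p = 0.118), with 7345 at an unadjusted p under 0.05 for LPS; this fit leaves few residual degrees of freedom. Subtracting library medians gave 392 regions for LPS (231 higher and 161 lower, against 177 and 514), 51 for LPS in WT and 5 for KO against WT. Array weights gave 5 for KO against WT and 0 with LPS, and regions with 1 peak in each library gave 6 and 8. For LPS over both genotypes, that setting took Pparg region 7 past the threshold (adjusted p = 0.0494). As a share of all covered bases, 3 genes were apart with LPS lower, Mgl2 by construction.

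Differences between KO and WT in covered bases changed sign without 1 library at Mgl2 (-135 to 144; 14.1 without either KO LPS library, 144 without untreated WT library 1), Mrc1 (-78.6 to 670; below 0 without WT LPS library 1 and, at -16.1, untreated KO library 2), Pparg (-142 to 613; below 0 without WT LPS library 2) and Cd163 (-98.6 to 318; -67.6 and -98.6 without WT LPS library 1 and 2, -56.4 without untreated KO library 2). These differences pooled the treatments, so leaving out 1 library gave the KO and WT arms unequal shares of LPS libraries. At each of these genes every LPS library lay below every untreated one, so such a loss moves the pooled difference by itself. The sign changes therefore do not show whether a genotype difference within a treatment is stable. Causes were not tested. Depth is unknown, so which calls it limits cannot be given.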
